A study of Mus musculus with 15 samples.

Results

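The first 10 minutes of the decay time course compared the 3 arrays titled time 10 min with the 3 arrays titled time 0 min, each 10 min array paired with the 0 min array of the same replicate number. These are 6 of the 15 arrays of the study. Only probe sets with a deposited value over the array median on 2 or more of the 3 arrays at 0 min were kept, which left 12544 of 25175 probe sets, called expressed below. Of these, 10822 carried a single gene symbol, for 9879 genes, and only these are named.

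All arrays came from C2C12 cells, a line of mouse skeletal muscle myoblasts, which carried the empty LKO1 lentiviral vector, were kept in puromycin and were proliferating. Actinomycin D, which blocks transcription, was given at 8 µg/mL to every culture, and the 0 min sample was taken after 30 min in the drug. The 10 min sample therefore lies 40 min after addition, and there was no array without the drug. Total RNA was hybridised to Affymetrix Mouse Gene 1.0 ST arrays at 5 times, of which 50, 110 and 230 min follow those used here, with 3 replicates at each time. The study describes the experiment as done in triplicate, and the labels do not say how far the cultures were separate, so p-values reflect only how far these arrays differed, in part perhaps for technical reasons. The cells are 1 line with a drug resistance vector, and in such bulk samples fewer cells and less RNA per cell cannot be told apart.

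When transcription stops, each mRNA that remains is lost at its own rate. Decay of most mRNAs begins with shortening of the poly(A) tail, followed by decapping and degradation from the 5′ end or by the exosome from the 3′ end. Transcripts of regulators that must switch off fast, such as immediate early transcription factors and the phosphatases that silence MAP kinase signalling, often hold AU-rich or GU-rich elements in the 3′UTR and are known to be short lived. Transcripts of ribosomal proteins, metabolic enzymes and structural proteins are mostly long lived.

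The cells carried myoblast transcripts at both times. Of 10 myoblast markers, 9 were measured and 8 were expressed, among them Myod1, Des and Cdh15. The summed ratio of the 9 was 125 to 161 at 0 min and 124 to 136 at 10 min. Of 12 myotube markers, 5 were expressed, and the summed ratio of all 12 was 53.9 in replicate 1 at 0 min against 26.8 to 34.1 on the other arrays. Of the markers of other cell types, none of 7 for endothelium was expressed, Cd68 of 7 for macrophages, Pparg of 7 measured for adipocytes, and Nefl and Tubb3 of 7 for neurons. The highest mean ratio at 0 min among the adipocyte markers was 12.1 and among the neuronal markers 10.9.

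Over all expressed probe sets the deposited ratio was slightly lower after 10 min. The values are ratios to the 5th percentile of each array, so a ratio of 1 is close to background and the log2 change of a weak transcript is understated. The median log2 change from 0 to 10 min was -0.13, -0.11 and -0.07 in the 3 pairs, a mean of -0.10 ± 0.03 (SD, n = 3) or 93.2% of the 0 min level. All 3 pairs had the same sign. An exact two-sided sign-flip test gave p = 0.25, the smallest value that 3 pairs allow. The share of expressed probe sets that stood lower at 10 min was 72.7%, 67.6% and 65.6% in replicates 1, 2 and 3. The 1030 probe sets for olfactory receptors, a gene family silent in muscle of which 7 passed the level filter, had median changes of 0.01, -0.07 and -0.02. Division of each array by its own median in place of the 5th percentile gave a median change of 0.02, which is near 0 by construction since it centres the arrays. Division by the median of the olfactory receptor probe sets, which does not centre the expressed ones, gave -0.075. That median was a ratio of 1.07 to 1.13 on the 6 arrays, so this reference lies close to the 5th percentile. The size and the sign of the common shift depend on the reference, and the groups below are given beside the value for all expressed probe sets.

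The change depended on the level of the transcript, in opposite ways in different replicates. In replicate 1 the median change went from -0.05 in the lowest decile of expressed probe sets by level to -0.17 in the highest decile. In replicate 2 it went from -0.32 to 0.12, and in replicate 3 from -0.07 to -0.02. Replicate 2 thus had its most negative changes among weak transcripts and positive ones among the most abundant, the reverse of replicate 1. Across the 12544 probe sets, which share arrays and are not independent, the changes in replicates 1 and 2 had a Pearson correlation of -0.21, those in replicates 1 and 3 of 0.04 and those in replicates 2 and 3 of 0.05.

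**Figure D1:**
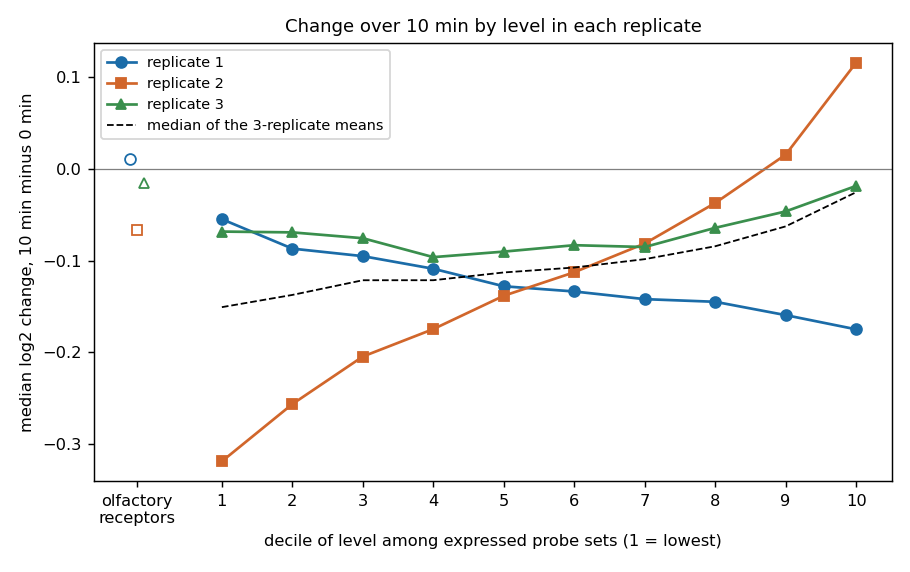
Median log2 change from 0 to 10 min (y axis) in each decile of the expressed probe sets ordered by level (x axis), for replicates 1, 2 and 3 and for the mean change. Open symbols at the left are olfactory receptor probe sets. Replicate 2 runs from -0.32 to 0.12 and replicate 1 from -0.05 to -0.17.

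No probe set passed the threshold of the paired limma test between 0 and 10 min. At a Benjamini-Hochberg adjusted p under 0.05 over 12544 probe sets, 0 were lower (0%) and 0 were higher (0%), and the lowest adjusted p was 0.0503. At an unadjusted limma p under 0.05, 1220 probe sets were lower (9.73%) and 21 were higher (0.167%). In all 3 replicates 3950 probe sets stood lower (31.5%) and 245 stood higher (1.95%). Every 10 min value lay under every 0 min value for 645 probe sets (5.14%), and over every 0 min value for 9 (0.0717%). Other settings gave between 0 and 62 lower and between 0 and 20 higher probe sets. Both were highest without replicate 2, where the fit gave all probe sets the same spread. At an adjusted p under 0.1 there were 13 probe sets, 12 of them lower. The genes named next are those with the largest mean change that kept 1 direction in all 3 replicates at an unadjusted p under 0.05. None passed the adjusted threshold, and their values describe an order rather than calls.

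Inhibitors of growth signalling were among the transcripts with the most negative changes. Gadd45g, a stress-inducible protein of growth arrest, had ratios of 18.3, 9.65 and 10.6 at 0 min and of 8.5, 6.28 and 6 at 10 min in replicates 1, 2 and 3. All 10 min values lay under all 0 min values, with a mean log2 change of -0.85 ± 0.24 (SD, n = 3) and an adjusted limma p of 0.0503. Dusp1, the nuclear phosphatase that inactivates MAP kinases, had ratios of 13, 13.6 and 7.68 at 0 min and of 7.20, 8.45 and 4.88 at 10 min. It was lower in each pair by a like amount, with a mean of -0.73 ± 0.11 (SD, n = 3) and an adjusted limma p of 0.0503, although the values of the 2 times overlapped because replicate 3 began lower. Dusp6, the cytoplasmic phosphatase that acts on ERK, went from 16.1, 10.0 and 10.4 to 9.78, 6.14 and 7.05. Its groups did not overlap, and the mean was -0.66 ± 0.09 (SD, n = 3) with an adjusted limma p of 0.0796. A constant loss at these mean changes would reduce the level to 50% in 11.8 min for Gadd45g, 13.7 min for Dusp1 and 15.1 min for Dusp6. Over 10 to 50 min their rates were less steep, at -0.22, -0.19 and -0.21 log2 per 10 min, though no difference in rates passed the adjusted threshold. The genes were named for the size of their changes, which can make such times too short, and they are not half-life estimates.

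Transcription factors known to be short lived lay close behind. Myc, the growth-promoting factor, had ratios of 35.1, 16.1 and 21.8 at 0 min and of 22.6, 8.70 and 16.3 at 10 min. It was lower in each replicate but the groups overlapped, since replicate 1 was higher than the others at both times. The mean change was -0.65 ± 0.23 (SD, n = 3) and the adjusted limma p 0.0988. Hes1, the repressor switched on by Notch, had ratios of 16.4, 9.28 and 12.8 at 0 min and of 9.05, 6.63 and 8.56 at 10 min. Its groups did not overlap, with a mean of -0.64 ± 0.19 (SD, n = 3). Otud1, a deubiquitinase, had ratios of 5, 4.63 and 4.12 at 0 min and of 3.23, 2.45 and 2.59 at 10 min. These values did not overlap either, and the mean change was -0.74 ± 0.16 (SD, n = 3) with an adjusted limma p of 0.0503.

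The other 4 of the 10 most negative transcripts were Actc1, Snrpd1, BC085271 and H4f16. Actc1, the cardiac alpha-actin that differentiating skeletal muscle also makes, had ratios of 14.5, 5 and 7.40 at 0 min and of 5.24, 3.36 and 4.84 at 10 min, a mean change of -0.89 ± 0.51 (SD, n = 3). The high value was that of replicate 1 at 0 min. The same array held the high summed ratio of myotube markers, and Acta1, the skeletal alpha-actin and itself one of those markers, stood there at 21.7 against 6.07 and 8.25 in replicates 2 and 3. The part of differentiated cells in the Actc1 value was not tested. Without replicate 1, Actc1 had a change of -0.59 and an adjusted limma p of 0.464.

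Snrpd1, a core Sm protein of the spliceosomal particles, had ratios of 63.2, 33.4 and 47.3 at 0 min and of 27.4, 15.6 and 43.8 at 10 min. The 10 min values were far lower in replicates 1 and 2 and little lower in replicate 3, so the mean of -0.81 had an SD of 0.60 (n = 3). At 50 min the ratios were 36.7, 31.1 and 45.5, higher than at 10 min in all 3 replicates. BC085271 had ratios of 12.7, 7.07 and 9.41 at 0 min and of 6.77, 3.73 and 7.63 at 10 min, a mean of -0.71 ± 0.35 (SD, n = 3). H4f16, a gene for histone H4, had ratios of 43.7, 22.1 and 26.7 at 0 min and of 22.1, 16.6 and 17.4 at 10 min, a mean of -0.67 ± 0.29 (SD, n = 3).

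**Figure D2:**
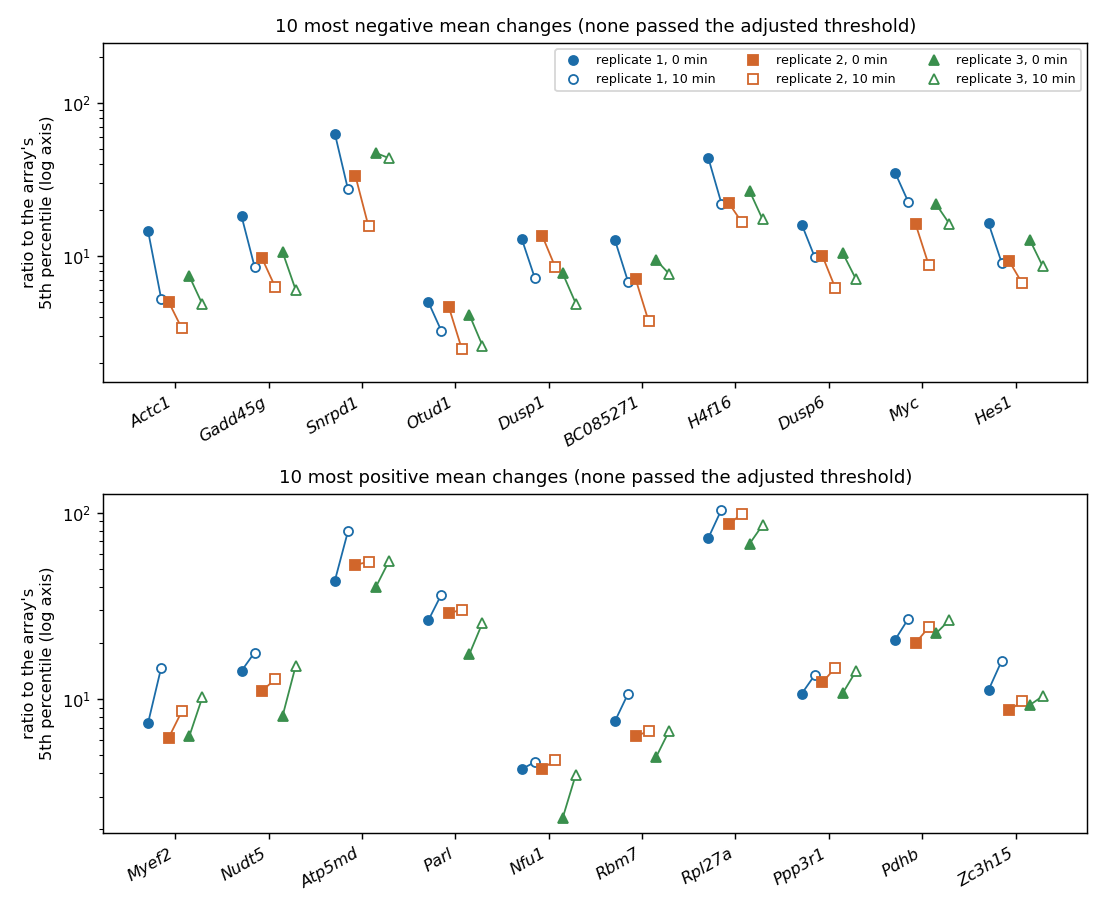
Ratio to the 5th percentile of the array (log axis) at 0 min (filled) and 10 min (open) in replicates 1, 2 and 3, joined by a line, for the 10 named transcripts with the most negative and the 10 with the most positive mean change. Gadd45g, Otud1, Dusp6, Hes1 and H4f16 have all 10 min values under all 0 min values.

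The 50 min arrays separate these transcripts further. Gadd45g, Dusp1, Dusp6, Myc and Hes1 had lower ratios at 50 min than at 10 min in every replicate, and at 230 min they lay between 1.61 and 2.82. Otud1 stood at 3.22, 2.24 and 2.86 at 50 min, close to its 10 min values. It was lower again later, at 1.26, 1.78 and 1.63 at 110 min and 1.38, 1.48 and 1.34 at 230 min. Actc1 stood at 5.71, 2.82 and 6.30 at 50 min, higher than at 10 min in 2 of 3 replicates.

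**Figure D3:**
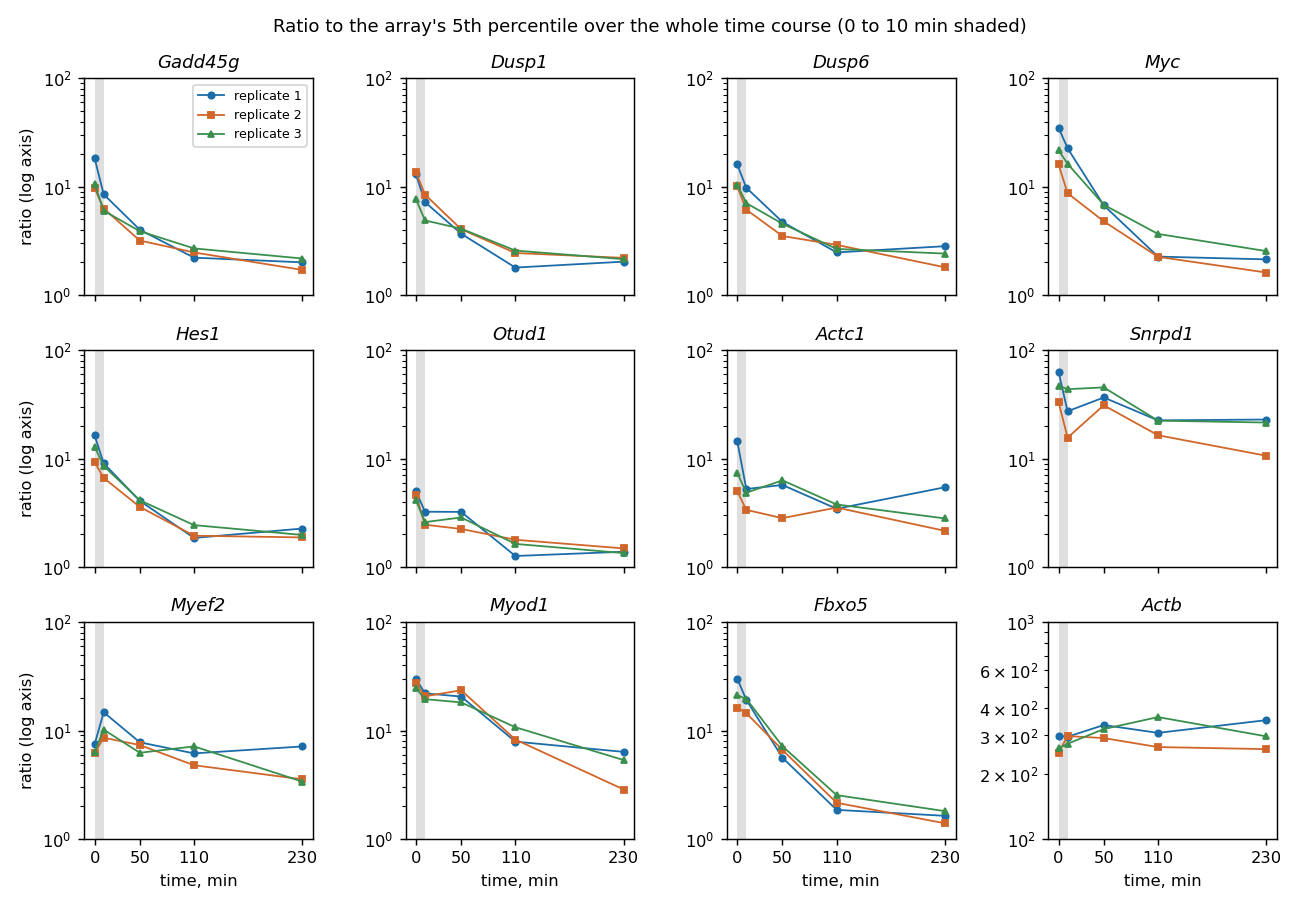
Ratio to the 5th percentile of the array (log axis) against time in minutes for 12 named transcripts in replicates 1, 2 and 3, with the first 10 min shaded. Myc ends at 1.61 to 2.54 and Fbxo5 at 1.39 to 1.80 at 230 min, while Actb stays between 249 and 365.

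Gene lists are described by their counts and medians beside those of all expressed probe sets. Of the latter, 31.5% stood lower in all 3 replicates, 9.73% were lower at an unadjusted limma p under 0.05, and the median change was -0.10. The lists were written with earlier results of these data known, so their medians and shares are descriptions and not independent support. No list had a gene past the adjusted threshold in either direction. Feedback inhibitors of MAP kinase and receptor signalling had a median change of -0.31, with -0.25, -0.40 and -0.23 in replicates 1, 2 and 3. Of 27 expressed genes of this list, 21 stood lower in all 3 replicates (77.8%) and none stood higher in all 3. At an unadjusted limma p under 0.05, 18 were lower (66.7%, beside 9.73% of all expressed probe sets). Its most positive member was Spred1, an inhibitor of the Ras pathway, with ratios of 18.0, 13.2 and 16.2 at 0 min and of 19.4, 12.4 and 14.3 at 10 min, values that overlapped throughout.

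Immediate early transcription factors, the first genes that growth factors induce, had a median of -0.20 over 31 expressed genes. By replicate it was -0.15, -0.29 and -0.10 in replicates 1, 2 and 3. The median ratio of the list at 0 min was 5.94. The decile of all expressed probe sets at ratios of 5.05 to 6.41 had -0.11, -0.17 and -0.10. Of the 31 genes, 20 stood lower in all 3 replicates (64.5%) and 1 stood higher. At an unadjusted limma p under 0.05, 13 were lower (41.9%, beside 9.73% of all expressed probe sets). Jun, a subunit of AP-1, had ratios of 27.1, 20.0 and 18.9 at 0 min and of 16.8, 18.4 and 13.8 at 10 min, without overlap. Its mean change was -0.42 ± 0.29 (SD, n = 3). Mafg, a small Maf protein and the most positive member, had 10.0, 8.04 and 8.22 at 0 min and 10.6, 8.15 and 9.17 at 10 min.

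The feedback factors of TGF-beta, BMP and Notch signalling and the Id proteins had a median of -0.18 over 15 genes, and 7 stood lower in all 3 replicates (46.7%). Id1, an inhibitor of MyoD-class factors, had ratios of 16.6, 8.00 and 14.8 at 0 min and of 10.9, 6.55 and 9.12 at 10 min. Grem1, a secreted BMP antagonist, had a mean change of 0.00 ± 0.24 (SD, n = 3). NF-kB, STAT and interferon response factors had a median of -0.15, with 8 of 17 lower in all 3 replicates (47.1%). In this list Nfkbia, the inhibitor that retains NF-kB in the cytoplasm, had ratios of 10.9, 8.33 and 7.01 at 0 min and of 6.89, 5.95 and 6 at 10 min, without overlap. Relb, an NF-kB subunit, had a mean change of -0.38 ± 0.11 (SD, n = 3), and Birc2, an inhibitor of apoptosis, one of 0.01 ± 0.27 (SD, n = 3).

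Other transcription factors followed the same order of size. The zinc finger genes named Zfp, Zkscan, Zscan and Zbtb were expressed at low levels, with a median ratio of 4.69 at 0 min, and had a median change of -0.19. Of 234 genes, 125 stood lower in all 3 replicates (53.4%) and 3 stood higher. The lowest decile of all expressed probe sets by level, at ratios of 2.04 to 3.13, had 36.1% lower in all 3 replicates. Zfp324 went from 4.53, 3.89 and 3.75 to 3.18, 2.88 and 2.41, without overlap. Zfp365 was the most positive of the family, at 0.22 ± 0.11 (SD, n = 3). Among 71 other transcription factors the median was -0.14 and 30 stood lower in all 3 replicates (42.3%). Snai1, a repressor of the epithelial programme, had ratios of 10.1, 8.78 and 8.96 at 0 min and of 8.00, 4.98 and 6.51 at 10 min. Foxc1, a forkhead factor, had a mean change of -0.46 ± 0.11 (SD, n = 3), and Nfix, a factor of the fetal muscle programme, one of 0.15 ± 0.09 (SD, n = 3).

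Histone genes had a median change of -0.29 over 24 genes, with -0.47, -0.13 and -0.28 in the 3 pairs. Of these, 15 stood lower in all 3 replicates (62.5%). H2ac15, which encodes a replication-dependent histone H2A, had ratios of 54.8, 30.7 and 26.4 at 0 min and of 30.5, 19.5 and 20.1 at 10 min. H2az1, which encodes a variant made throughout the cell cycle from polyadenylated mRNA, had a mean change of -0.03 ± 0.13 (SD, n = 3). Replication-dependent histone genes are close copies of each other, and probe sets of single members may share signal.

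The groups of noncoding RNAs had medians below that of all expressed probe sets, although single members such as Malat1 did not follow. The 6 expressed snoRNA hosts and nuclear noncoding RNAs had a median change of -0.33, although only 3 were lower in all 3 replicates. Gas5, a host of snoRNAs that is itself degraded in the cytoplasm, had ratios of 78.0, 53.3 and 63.9 at 0 min and of 61.4, 37.1 and 46.2 at 10 min. It was lower in each replicate, with a mean of -0.45 ± 0.09 (SD, n = 3), and 2 further expressed probe sets for it had means of -0.52 and -0.49. Malat1, a long-lived nuclear RNA, stood at 110, 120 and 97.6 at 0 min and at 120, 148 and 92.1 at 10 min. Of 24 expressed probe sets annotated as snoRNAs, 19 stood lower in all 3 replicates (79.2%), with a median of -0.26. For 115 probe sets of long noncoding RNAs the median was -0.16, and most of it came from replicate 2, at -0.36 against -0.10 and -0.07.

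Secreted factors had a median below the -0.10 of all expressed probe sets, and growth arrest genes lay close to it. Secreted growth factors and cytokines had a median of -0.17, with 17 of 34 lower in all 3 replicates (50.0%). Vegfa, the endothelial growth factor, had ratios of 29.5, 18.1 and 17.9 at 0 min and of 18.3, 14.5 and 14.6 at 10 min. Igf2, a growth factor of myoblasts, had a mean of -0.38 ± 0.46 (SD, n = 3), carried by replicate 1 at 4.29 and 2.30. Cxcl12, a chemokine, had a mean of 0.11 ± 0.13 (SD, n = 3). In the list of growth arrest, apoptosis and p53 target genes, which holds Gadd45g, the median was -0.13 and 12 of 34 stood lower in all 3 replicates (35.3%). Gadd45a, a relative of Gadd45g, had a mean of -0.38 ± 0.12 (SD, n = 3), and Tnfrsf10b, a death receptor, one of 0.11 ± 0.25 (SD, n = 3).

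Among muscle genes the median change was -0.17 over 25 genes, with 14 lower in all 3 replicates (56.0%). The medians per replicate were -0.35, -0.16 and -0.11, the first from the pair whose 0 min array had the high actin values. Myod1, the master factor of the myoblast, had ratios of 30.0, 27.4 and 24.6 at 0 min and of 22.1, 20.7 and 19.5 at 10 min. All 10 min values lay under all 0 min values, and the 3 changes were alike, with a mean of -0.39 ± 0.06 (SD, n = 3) and an adjusted limma p of 0.339. At 50 min Myod1 stood at 20.6, 23.6 and 18.2, about where it had been at 10 min. It was lower again later, at 7.9, 8.26 and 10.7 at 110 min and 6.35, 2.85 and 5.33 at 230 min. Myog, the factor that starts differentiation, was near the floor at 3.14, 2.98 and 2.25, and at 2.18, 2.28 and 2.41 after 10 min. Igfbp5, a binding protein of insulin-like growth factors, was the most positive of the list at 0.10 ± 0.10 (SD, n = 3).

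Cell cycle and replication genes had medians near 0. For 55 cell cycle regulators the median was -0.04, and 12 stood lower in all 3 replicates (21.8%). Fbxo5, the inhibitor of the anaphase-promoting complex known as Emi1, had ratios of 30.2, 16.3 and 21.2 at 0 min and of 19.2, 14.5 and 19.7 at 10 min, a mean of -0.31 ± 0.30 (SD, n = 3). At 50 min it stood at 5.61, 6.61 and 7.16, so its ratio was less than that of 10 min in every replicate by a wide margin. Wee1, the kinase that holds Cdk1 inactive, had a mean of -0.29 ± 0.23 (SD, n = 3), and Cdk1 itself one of 0.11 ± 0.34 (SD, n = 3). For 45 DNA replication genes the median was -0.06 with 6 lower in all 3 replicates (13.3%). The most negative was Pole4, a polymerase epsilon subunit, at -0.30 ± 0.06 (SD, n = 3). The most positive was Gins4, a part of the replicative helicase, at 0.10 ± 0.14 (SD, n = 3). At 50 min Pole4 stood at 14.54, 13.95 and 17.3, higher than its 10 min ratios of 13.25, 10.5 and 12.24.

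Genes that act on RNA and chromatin lay close to the median of all probe sets. Chromatin regulators had a median of -0.12 over 89 genes, from Bmi1, a Polycomb protein, at -0.34 ± 0.09 and Msl2, a ubiquitin ligase of the MSL complex, at -0.32 ± 0.06 to the deacetylase Hdac2 at 0.10 ± 0.12 (SD, n = 3). For splicing factors and kinases the median was -0.08 over 68 genes, Snrpd1 included, and for factors of mRNA decay it was -0.07 over 72. In the latter list Zfp36l2, which binds AU-rich elements and promotes deadenylation, had ratios of 34.3, 26.8 and 24.2 at 0 min and of 23, 19.5 and 22 at 10 min, without overlap. Noct, a protein of the deadenylase family, had a mean of -0.34 ± 0.33, and Exosc2, a subunit of the exosome, one of 0.15 ± 0.14 (SD, n = 3). Ubiquitin ligase adaptors and deubiquitinases had a median of -0.11, with 47 of 116 lower in all 3 replicates (40.5%). The list was made from the Fbxo, Fbxl, Fbxw, Usp, Klhl, Kbtbd and Socs families and does not hold Otud1. Its most negative members were Fbxl14 at -0.43 ± 0.10 and Socs3, a feedback inhibitor of cytokine receptors, at -0.42 ± 0.26 (SD, n = 3).

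The abundant transcripts of housekeeping genes had medians nearest to 0 and differed between replicates. Cytosolic ribosomal protein genes, with a median ratio of 111 at 0 min, had a median change of -0.03, made of -0.19, 0.13 and -0.05 for replicates 1, 2 and 3. The highest decile of all expressed probe sets had -0.17, 0.12 and -0.02, so in each replicate the ribosomal genes lay near their level class. Of 56 genes 7 stood lower in all 3 replicates (12.5%). Rpl12 was the most negative, at a low level for this family, with ratios of 6.85, 5.04 and 7.05 at 0 min and of 4.31, 3.99 and 4.29 at 10 min. Rps15a, the most positive by its mean, went from 4.79, 13.9 and 5.48 to 11, 7.08 and 7.59, higher in 2 replicates and lower in the other. Ribosomal protein genes have many processed copies in the genome, and such probe sets are uncertain. Proteasome subunits had medians of -0.14, 0.10 and 0.01 in the 3 replicates, and genes of glycolysis and the tricarboxylic acid cycle -0.18, 0.11 and -0.00, each with replicate 2 above 0 and replicate 1 below. Actb, the beta-actin often used as a reference, had ratios of 299, 249 and 262 at 0 min and of 296, 298 and 275 at 10 min. Its mean change was 0.11 ± 0.14 (SD, n = 3). Gapdh had no probe set with a single gene symbol and is not given.

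The remaining lists lay between these. The median was -0.11 for mitochondrial ribosomal proteins, -0.08 for the respiratory chain, -0.09 for collagens, matrix and integrins, -0.05 for the actin and tubulin cytoskeleton, -0.08 for stress response genes and -0.09 for cholesterol and fatty acid synthesis. Among respiratory chain genes Ndufa11 and Ndufs7, both of complex I, had means of -0.40 ± 0.09 and -0.40 ± 0.37 (SD, n = 3). The other expressed probe set of Ndufa11 had -0.29. At 50 min the named one stood at 13.7, 12.2 and 14.2, higher than its 10 min ratios of 12.8, 8.94 and 9.95. In the matrix list Col15a1 had -0.34 ± 0.19 and Col5a2 0.15 ± 0.06 (SD, n = 3). Cholesterol synthesis genes ran from Sc5d, a sterol desaturase, at -0.21 ± 0.24 to Dhcr7, which makes cholesterol from its precursor, at 0.24 ± 0.37 (SD, n = 3). Ddit4, an inhibitor of mTOR signalling, had ratios of 8.14, 8.98 and 9.06 at 0 min and of 5.23, 6.95 and 7.17 at 10 min, without overlap, and Trib1, a pseudokinase, had a mean of -0.44 ± 0.21 (SD, n = 3). In the list of cytoskeletal genes Tubg1, gamma-tubulin of the centrosome, had -0.43 ± 0.23 (SD, n = 3), and its 50 min ratios of 27.6, 31.0 and 32.3 were higher than its 10 min ratios of 24.7, 18.7 and 25.5.

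**Figure D4:**
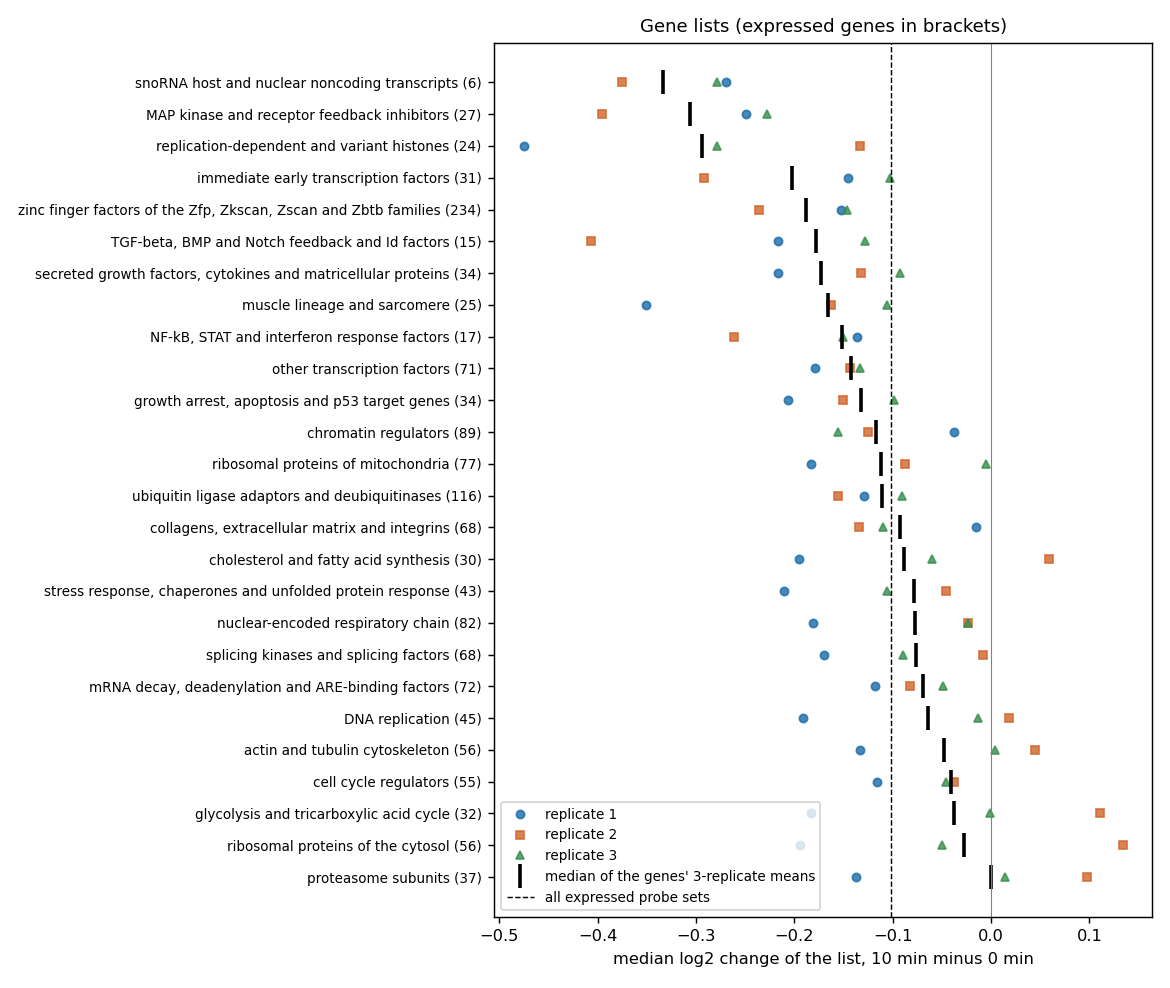
Median log2 change from 0 to 10 min (x axis) for 26 gene lists, with the number of expressed genes in brackets. Coloured symbols are replicates 1, 2 and 3, black bars the median of the genes' mean changes, and the dashed line all expressed probe sets at -0.10. The list of feedback inhibitors lies at -0.31 and the proteasome at 0.

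With arrays divided by their own median the feedback inhibitors had a median of -0.18, the histones -0.17, the snoRNA hosts and nuclear noncoding RNAs -0.21 and the immediate early factors -0.08, beside 0.02 for all expressed probe sets. On that scale the cytosolic ribosomal proteins stood at 0.10 and the proteasome subunits at 0.13. After cyclic loess, which takes out the dependence on level and was chosen after the data were seen, the feedback inhibitors had -0.18, the histones -0.21, the immediate early factors -0.09 and the ribosomal proteins -0.01, beside 0.00 for all.

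The most positive mean change among named transcripts was that of Myef2. Myef2, an RNA-binding protein first described as a repressor of the myelin basic protein gene, had ratios of 7.47, 6.20 and 6.30 at 0 min and of 14.8, 8.58 and 10.2 at 10 min. All 10 min values lay over all 0 min values, with a mean change of 0.72 ± 0.26 (SD, n = 3) and an adjusted limma p of 0.0796. At 50 min it stood at 7.78, 7.34 and 6.23, back near its 0 min values. Ppp3r1, the regulatory subunit of calcineurin, had ratios of 10.7, 12.3 and 10.8 at 0 min and of 13.5, 14.8 and 14.1 at 10 min, also without overlap. Pdhb, a subunit of pyruvate dehydrogenase, had 20.8, 20.0 and 22.6 at 0 min and 26.9, 24.3 and 26.5 at 10 min.

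The remaining 7 of the 10 most positive transcripts had means from 0.28 to 0.47, in the order Nudt5, Atp5md, Parl, Nfu1, Rbm7, Rpl27a and Zc3h15. Nudt5 hydrolyses ADP-sugars, Atp5md is a subunit of ATP synthase, Parl a mitochondrial rhomboid protease, Nfu1 an iron-sulphur scaffold and Rbm7 a part of the nuclear exosome targeting complex. For several of them other probe sets of the same gene differed. Atp5md stood at 43.2, 52.5 and 40.0 and then at 79.4, 54.4 and 55.0 on the named probe set, whereas its 2 other probe sets had mean changes of -0.10 and -0.05. Parl had 0.36 on one probe set and -0.01 on the other, Nfu1 0.35 and 0.06, and Zc3h15 0.28 and -0.01. Rpl27a was represented by 9 probe sets with means from -0.11 to 0.34. These genes are therefore uncertain, since the named probe set was the one with the largest change and near-identical copies may share signal.

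A direct test compared the rate over 0 to 10 min with the rate over 10 to 50 min, both in log2 units per 10 min. The median rate of expressed probe sets was -0.10 in the first interval and -0.00273 in the second. By replicate the second-interval medians were -0.05, 0.01 and 0.02. In this test 2 probe sets had a lower rate in the first interval at an adjusted limma p under 0.05 (0.0159%) and 1 had a higher one (0.00797%). At an unadjusted limma p under 0.05 the counts were 325 and 14 of 12544 probe sets, together a smaller share than the threshold of 0.05 itself. The limma fit of this contrast gave all probe sets 1 common spread, so a transcript whose replicates scatter widely was tested with a spread smaller than its own.

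The 3 transcripts past the threshold were Snrpd1, Actc1 and Myef2. Snrpd1 had a rate of -0.81 over 0 to 10 min and of 0.12 over 10 to 50 min, an estimated difference of -0.93 with an adjusted limma p of 0.00387. Actc1 had rates of -0.89 and 0.02, a difference of -0.91 with an adjusted limma p of 0.00387. Myef2 had rates of 0.72 and -0.15, a difference of 0.87 with an adjusted limma p of 0.00706. All 3 calls were lost when the arrays were divided by their median or 75th percentile, without replicate 1, without the level filter and without pairing, where the differences kept their direction. Of the early regulators, Gadd45g had rates of -0.85 and -0.22 and Dusp1 of -0.73 and -0.19, and neither difference passed the threshold. Myc had -0.65 and -0.32. Fbxo5 had -0.31 and -0.36, and Myod1 -0.39 and -0.00.

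**Figure D5:**
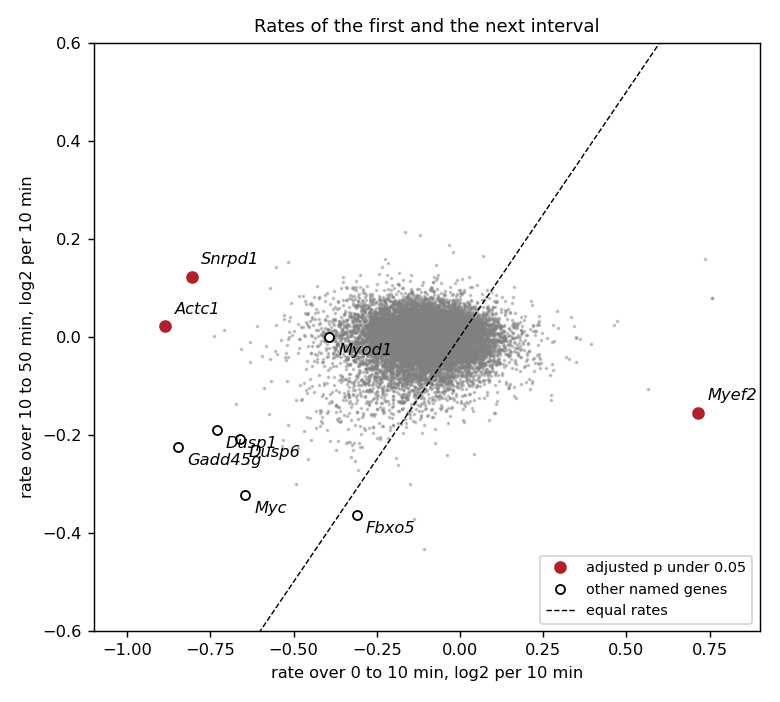
Rate of change over 10 to 50 min (y axis) against the rate over 0 to 10 min (x axis), in log2 units per 10 min, for 12544 expressed probe sets, with a dashed line of equal rates and different scales on the axes. Snrpd1 and Actc1 lie to the left and Myef2 to the right, the 3 that passed an adjusted p of 0.05.

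Across all expressed probe sets, the change over the first 10 minutes carried little of the order of losses between 50 and 110 min. Between 50 and 110 min, on arrays that share none with the first interval, the 1220 probe sets lower at an unadjusted limma p under 0.05 had a median log2 change of -0.61, and the other 11324 had -0.60. By replicate these were -0.85, -0.50 and -0.52 against -0.85, -0.56 and -0.44, so the sets were not in the same order in every replicate. Across the 12544 probe sets the mean change from 0 to 10 min and that from 50 to 110 min had a Pearson correlation of 0.05 and a Spearman correlation of 0.04. The first changes themselves correlated between replicates at only -0.21, 0.04 and 0.05, so this comparison cannot tell noise from an absence of shared order. Over 10 to 50 min the median rate was -0.097 log2 per 10 min for feedback inhibitors, -0.085 for immediate early factors and -0.064 for histones. It was -0.015 for snoRNA hosts and nuclear noncoding RNAs and -0.0019 for muscle genes, beside -0.0027 for all. The decile with the most negative first changes also had lower levels, with a median ratio of 4.48 at 50 min against 13.3 for the decile with the most positive ones, and low ratios lie near the floor of the scale.

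At the edge of the level filter, Lypd9, Megf6 and Klhl13 were kept, each with a ratio of 2.43 in replicate 3, where the median was 2.42. Atf3, an immediate early factor, Gng7 and Pld6 were left out because a ratio that would have kept them only equalled the median of its array. Atf3 had ratios of 2.60, 2.80 and 2.35 at 0 min and of 2.48, 2.23 and 2.00 at 10 min.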

How the data were processed

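The deposited values of 15 Affymetrix Mouse Gene 1.0 ST arrays are linear ratios with 2 decimals, made by the authors through division of every value by the 5th percentile of the same array. How probes were summarised and corrected for background, and with which program, is not stated here because no source used gives it. Array medians ran from 2.18 to 2.74 at 0 and 10 min. Depth has no meaning for arrays, whose number limits the precision.

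Log2 ratios of the 6 arrays were fitted with limma 3.58.1 (R 4.3.3), blocked on replicate number and moderated with eBayes, two-sided, and p-values were adjusted over 12544 probe sets after Benjamini and Hochberg. Pairing by replicate number was part of the design of the comparison. Same-numbered arrays deviated together (correlations 0.308, 0.524 and 0.361), while arrays with different numbers had correlations of -0.429 to 0.228. Rates used the 9 arrays at 0, 10 and 50 min. Of 25175 probe sets, the platform annotation gave 21044 a single symbol, 1492 several and 2639 none, and 20959 symbols were updated by gene number. A gene of a list was taken at its probe set with the highest level. Named genes were the 10 largest changes in each direction with 1 direction in all 3 replicates and an unadjusted p under 0.05, the extremes of each list and transcripts that serve as references or that the study uses. Probe sets near the filter edge were added. Members and lists were chosen with earlier results of these data known. The fit, tested on simulated data, recovered 64% of changes of 0.5 and 100% of changes of 1 (log2) between 0 and 10 min, and 52% and 100% for rates, with 9 and 10 false calls. The simulated probe sets all had the same normal spread and held no change by level, so these shares need not hold for the real arrays. Alternatives were scaling, filters, background subtraction, pseudocount, left-out replicates, no pairing and eBayes options. Figures were drawn with matplotlib 3.10.9. No reference genome or 3′UTR sequences were used here.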

Additional observations from a re-analysis of the deposited data

How the results depend on the processing

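The count of 0 lower probe sets between 0 and 10 min became 3 with arrays divided by their median, 3 with division by the olfactory receptor median, 42 above the 75th percentile at 0 min, 3 with the level filter at 50 min, 10 on log2(ratio + 1), 12 with an intensity trend and 4 with robust eBayes. The count of 0 higher became 5, 1, 6, 0, 1, 3 and 1 in that order, and 1 with division by the 75th percentile. Leaving out 1 replicate gave 0 to 62 lower and 0 to 20 higher: without replicate 1 there were 0 and 0, without replicate 2 62 and 20, and without replicate 3 25 and 4. Without the replicate block, that is without pairing, there were 0 lower and 0 higher. In the fits without replicate 2, without replicate 3 and with arrays divided by their median, all probe sets were given 1 common spread. The fit above the 75th percentile came close to that. A transcript whose replicates scatter widely was then tested with a spread smaller than its own. The cause of the differences between settings was not tested. Gadd45g passed as lower in 9 and Dusp1 in 8 of 18 alternatives, and Myef2 as higher in 8 of the 17 that kept it.

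The rate test, with 2 lower and 1 higher in the first interval, gave 0 and 0 with arrays divided by their median, with the 75th percentile, with quantile normalization, with no filter, with the 5th percentile subtracted, with cyclic loess, without the replicate block and with 110 or 230 min as the later time. Above the 75th percentile it gave 1 and 0. Leaving out 1 replicate gave 0 to 1 lower and 0 to 6 higher: 0 and 0 without replicate 1, 1 and 6 without replicate 2, 1 and 0 without replicate 3. The fit as reported gave all probe sets 1 common spread, as did 4 of the 15 alternatives, and the intensity trend gave 1 spread for each level.

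The median change of -0.10 was 0.0243 with arrays divided by their median, 0.0133 with the 75th percentile, -0.0009 with quantile normalization and -0.0005 with cyclic loess, and -0.12 to -0.09 with 1 replicate left out. Cyclic loess was chosen after seeing the data.

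Of the named genes, only some with changes near 0 or replicates that disagreed reversed. With arrays divided by their median or 75th percentile Spred1 had 0.0691 and 0.058, H2az1 0.0947 and 0.0836 and Hk2 0.0151 and 0.0041. Pfkp had 0.0067 with the median. Spred1 had 0.0382 with quantile normalization and 0.0337 with cyclic loess, and Grem1 -0.001 on log2(ratio + 1). With 1 replicate left out Spred1 had -0.138 to 0.0042, Grem1 -0.131 to 0.11, Birc2 -0.0859 to 0.166, Cdk1 -0.0716 to 0.262, H2az1 -0.102 to 0.0278, Rps15a -0.253 to 0.833, Psmb9 -0.406 to 0.0219 and Col9a1 -0.489 to 0.0027.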
